A study of Oryzias latipes with 10 samples.

Results

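The 17-beta hydroxysteroid dehydrogenases were examined in liver RNA from medaka, Oryzias latipes, a freshwater teleost. The family was taken as every gene whose RefSeq symbol is hsd17b followed by a number and whose mean reached 1 RPM (1 read per 1000000 reads of its library) in either genotype. Of 25795 genes in the table, 6 carried such a symbol and 5 met the level: hsd17b3, hsd17b4, hsd17b8, hsd17b10 and hsd17b14. The sixth, hsd17b1, had 0 reads in all 10 libraries. Genes known only by a LOC number were not searched for further relatives, so the 5 are the members with a family symbol and not necessarily the whole family.

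Wild-type fish (WT) were compared with fish in which phod1, also written pd1 in the labels, was knocked out (KO), with 5 liver libraries each. Both genotypes were held under long days and sampled at noon. The labels state no strain, age, sex, knockout allele, number of fish per library or batch, and nothing says how the fish were drawn. The p-values therefore reflect only how these libraries vary, part of which may be technical. The comparison asks how loss of phod1 changes liver gene expression. Libraries were made by Lasy-Seq, which reads the 3' ends of transcripts, and values were not divided by gene length.

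Most of these enzymes belong to the short-chain dehydrogenase/reductase superfamily, which passes hydride between a cofactor, NAD(H) or NADP(H), and a hydroxyl or keto group. The family is named for the reaction at carbon 17 of the steroid ring that switches estrogens and androgens between a weak keto form and a strong hydroxyl form. Several members act mainly on other substrates, among them fatty acyl chains, and these are widely expressed in liver. In egg-laying fish the liver is also a major target of estradiol, which turns on the yolk and egg envelope genes there.

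In KO liver hsd17b14 rose and none of the other 4 members passed the test. The rise took hsd17b14 from a mean of 48.7 ± 37.1 RPM in WT to 176 ± 9.45 RPM in KO (SD, n = 5 each). The steroid enzyme gene hsd17b3 stood at 2.06 ± 1.36 RPM in WT and 0.380 ± 0.507 RPM in KO, and its difference did not pass the test across all genes. The 3 members of fatty acid and mitochondrial metabolism, hsd17b4, hsd17b8 and hsd17b10, had overlapping groups. By limma, 1 of 5 members was higher and 0 lower at an adjusted p under 0.05, against 1.17% of 14984 tested genes higher and 1.68% lower. At an unadjusted p under 0.05 the limma counts for the members were 1 higher and 1 lower. The share of all genes at that unadjusted threshold was not counted. The unadjusted counts of the lists below therefore have no background beside them, and whether they are unusual was not tested. The count tests, edgeR and DESeq2, used the reads of the 9 libraries other than KO5. At an adjusted p under 0.05 edgeR called 0 members in either direction, against 131 genes higher and 47 lower in all. DESeq2 called 1 member higher and 0 lower, against 310 genes higher and 179 lower in all. The split of all genes depends on scaling, at 175 higher and 1.68% lower as deposited and 303 higher and 131 lower after TMM scaling, and hsd17b14 was the only member called in both. The median log2 fold change (KO minus WT) was -0.05 over the 5 members and -0.19 over all tested genes.

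**Figure D1:**
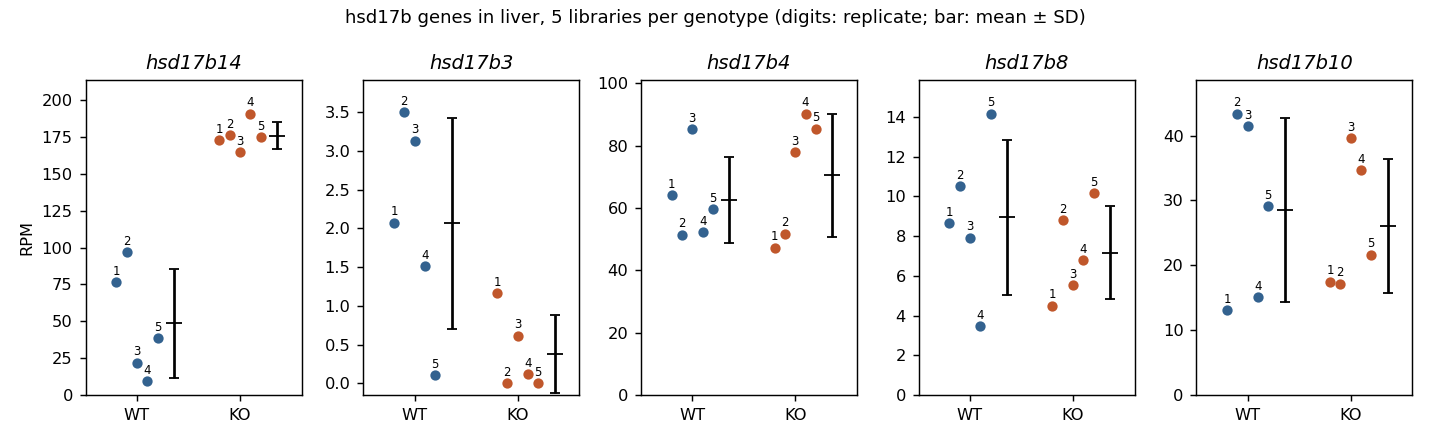
RPM (y axis, a separate scale for each gene) of the 5 hsd17b genes in WT and KO liver; each point is a library with its replicate number, and the bar is the mean ± SD of 5 libraries. All 5 KO points of hsd17b14 lie between 165 and 191 RPM, above the highest WT point at 97.1 RPM, while the groups of the other 4 genes overlap.

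hsd17b14 encodes an NAD-dependent dehydrogenase that, for the human enzyme, oxidises the hydroxyl group at carbon 17 of estradiol in vitro and also oxidises the sugar L-fucose. Its level was 76.6, 97.1, 21.9, 9.21 and 38.8 RPM in WT1 to WT5. It was 173, 177, 165, 191 and 175 RPM in KO1 to KO5. Every KO library lay above every WT library, and WT4 was the lowest of all. Groups did not overlap with KO higher in 1.03% of tested genes.

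The log2 fold change of hsd17b14 was 2.25 ± 0.42 (SE), with a 95% interval of 1.37 to 3.13 and a limma adjusted p of 0.00562. An exact two-sided permutation test of the mean log2 levels gave p = 0.00794, the smallest that 5 against 5 libraries allow, unadjusted and one of 5 such tests run. On the linear scale the ratio of group means was 3.61, and the limma estimate corresponded to a 4.76-fold higher level (2.59 to 8.74). In reads, 1558 fell on hsd17b14 in the WT libraries and 6550 in the KO libraries, so counting error is small beside the spread between WT libraries. Ranked by size, its rise was the fifth among tested genes with a symbol and number 23 among all tested genes. The call was lost in limma with robust variance estimates (adjusted p = 0.0950) and in edgeR on the reads of the 9 libraries other than KO5 (adjusted p = 0.0507).

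The genotypes also differed in how far the libraries of hsd17b14 spread. The highest WT value was 10.5 times the lowest, whereas the highest KO value was 1.16 times the lowest. On the log2 scale the SD was 1.33 in WT and 0.08 in KO. Over the 1375 tested genes with a mean of at least 50 RPM, the median SD was 0.32 in WT and 0.30 in KO. Among them, 44 had a WT spread as large as that of hsd17b14 or larger, and 15 a KO spread as small or smaller. The spreads of hsd17b14 set these limits, so it is counted in each by construction. These spreads are described without a test, and limma assumes a single spread for both groups.

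Egg protein transcripts set 2 libraries apart, and hsd17b14 was read against them. The yolk precursor genes vit-6 and ol-vit1 and the egg envelope gene 1-sf made up 2.77% of reads in WT3 and 10.4% to 14% in the other 4 WT libraries. They made up 6.95% in KO2 and 0.428% to 0.593% in the other 4 KO libraries. KO2, which had the highest egg protein share of the KO group, had an hsd17b14 level of 177 RPM, inside the range of the other 4 KO libraries. WT3, with the lowest share of the WT group, had 21.9 RPM, and WT4, with a share of 12.4%, had 9.21 RPM. Without WT3 and KO2 the log2 fold change of hsd17b14 was 2.08, with a limma adjusted p of 0.00907. The egg protein share itself differed between the genotypes, with means of 10.6% in WT and 1.80% in KO. Its relation to hsd17b14 cannot be told apart from genotype here and was not tested.

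**Figure D2:**
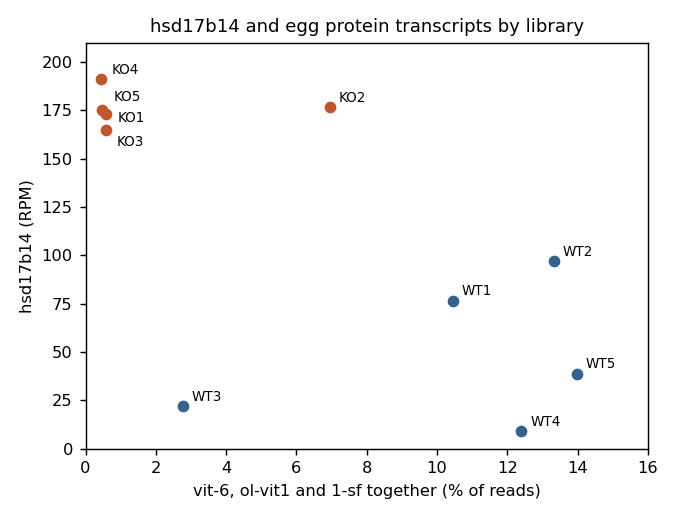
hsd17b14 level in RPM (y axis) against the share of reads from vit-6, ol-vit1 and 1-sf in percent (x axis), 1 point per library, blue for WT and orange for KO. KO2 has a share of 6.95% and an hsd17b14 level inside the range of the other KO libraries. WT3 has a share of 2.77% and an hsd17b14 level within the WT range. The relation of hsd17b14 to the share was not tested.

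Neither neighbour of hsd17b14 on the chromosome, in the gene order of RefSeq assembly ASM223467v1, passed the test. LOC101168042 averaged 30.9 RPM in WT and 37.8 RPM in KO (log2 fold change 0.34, limma adjusted p = 0.534). LOC101163081, on the other side, averaged 4.02 and 2.33 RPM (-0.39, limma adjusted p = 0.703). No annotated gene overlapped hsd17b14 in that assembly.

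The tested genes with a symbol most like hsd17b14 over the 10 libraries were enpp6, ydjc and cenpw. Likeness was measured as the root mean square difference between log2(RPM + 1) profiles, each centred on its own mean. That difference was 0.76 log2 units for enpp6, 0.83 for ydjc and 0.85 for cenpw, against 1.40 for a flat profile, so none followed hsd17b14 closely. Genes chosen this way must tend to separate the genotypes as hsd17b14 does, and their values are a description. enpp6, a choline-specific phosphodiesterase gene, averaged 0.611 ± 0.315 RPM in WT and 4.81 ± 1.24 RPM in KO (log2 fold change 1.84). ydjc averaged 3.90 and 8.19 RPM, and cenpw 2.90 and 5.43 RPM.

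hsd17b3 encodes the enzyme that in mammals reduces androstenedione to testosterone, chiefly in the testis. Its level in WT1 to WT5 was 2.07, 3.50, 3.14, 1.51 and 0.102 RPM. In KO1 to KO5 it was 1.17, 0, 0.615, 0.119 and 0 RPM. The 4 libraries WT1 to WT4 lay above every KO library, and WT5, at a single read, lay among the KO values. In reads, the WT libraries held 12, 20, 17, 10 and 1, and the KO libraries 7, 0, 5, 1 and 0. A count of 0 allows up to 0.66 RPM in KO2 and 0.297 RPM in KO5, for counting error only.

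On the log2(RPM + 1) scale, which understates the change of such low genes, hsd17b3 differed by -1.07 ± 0.44 (SE; 95% interval -1.99 to -0.15). The limma p was 0.0254 unadjusted and 0.231 adjusted over all genes, so the difference was not called. hsd17b3 met the level of 1 RPM through WT alone, so its choice as a member already favours a WT level above that of KO. Pooling the reads of each genotype, 60 in WT and 13 in KO, gave a WT level 5.14 times that of KO. Its exact 95% interval of 2.79 to 10.2 covers counting error and not the spread between libraries. In edgeR the log2 fold change was -1.72 with an adjusted p of 0.578. Without WT5 the limma value was -1.40 with an adjusted p of 0.11.

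Since hsd17b3 is known from the testis, markers of gonad cells were read in the same libraries. Of 12 matched testis somatic and germ cell markers, 6 were tested. In limma 0 were higher and 1 lower, against 1.17% and 1.68% of all tested genes. Unadjusted, limma gave 0 higher and 2 lower. At an adjusted p under 0.05 edgeR and DESeq2 called 0. The member called was dnd1, a germ cell RNA-binding protein gene (20.5 to 9.88 RPM, log2 fold change -0.95, limma adjusted p = 0.0359). Dropping single libraries ended that call in 9 of 10 cases, and 6 other settings ended it too, among them the replicate block (0.0830), TMM scaling (0.101), edgeR (0.175) and DESeq2 (0.0614). The germ cell gene dazl had the largest difference of the 6 tested, at 32, 47.4, 1.29, 29.5 and 0.816 RPM in WT1 to WT5 and 0.333 to 6.82 RPM in KO. Its log2 fold change was -2.26, which passed unadjusted but not adjusted (limma adjusted p = 0.146). Like hsd17b3 it was lowest of the WT libraries in WT5, but it was also near 1 RPM in WT3, where hsd17b3 stood at 3.14 RPM. The summed level of the 12 matched testis markers was 91.8 to 140 RPM in WT and 75.7 to 119 RPM in KO. The Sertoli cell hormone gene amh averaged 26.0 RPM in WT and 19.6 RPM in KO (limma adjusted p = 0.471), and the germ cell gene piwil1 4.33 and 2.40 RPM (0.336). The remaining tested markers hardly differed. piwil2 averaged 24.2 RPM in WT and 23.5 RPM in KO (log2 fold change 0.003), and sox9 28.6 and 29.0 RPM (-0.04). The germ cell gene ddx4 averaged 0.184 and 0.163 RPM, and nanos2 was at 0 in all libraries. Ovary and oocyte markers summed to 0.612 to 2.87 RPM in WT and 1.08 to 7.12 RPM in KO, and none of the 8 matched reached the level for testing. The part of other cells in the hsd17b3 difference was not tested, and in whole liver RNA fewer cells of a type cannot be told apart from less RNA per cell.

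ipo11 and ercc6l2 lie on either side of hsd17b3 in ASM223467v1. ipo11 averaged 7.98 RPM in WT and 7.44 RPM in KO (limma adjusted p = 0.864), and ercc6l2, at 0.401 and 1.01 RPM, was below the level for testing. The genes with a symbol most like hsd17b3 were smim19, cenpf and dcaf5, with root mean square differences of 0.40, 0.42 and 0.43 log2 units against 0.80 for a flat profile. Genes chosen this way must tend to differ between the genotypes as hsd17b3 does, and their values are a description. cenpf, a centromere protein gene, averaged 2.01 ± 1.34 RPM in WT and 0.553 ± 0.493 RPM in KO (limma adjusted p = 0.298). smim19 averaged 18.2 and 10.7 RPM (0.269), and dcaf5 7.51 and 4.98 RPM (0.445). The groups of each overlapped.

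hsd17b1 encodes the enzyme that in mammals makes estradiol from estrone, chiefly in ovarian granulosa cells. It was not detected in liver, with 0 of 33344446 reads in WT and 0 of 37164629 in KO, which allows a level of up to 0.09 and 0.0807 RPM.

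hsd17b4 encodes the peroxisomal D-bifunctional protein, which carries out the middle steps of the shortening of very long and branched fatty acids. Its level was 64.1, 51.5, 85.2, 52.3 and 59.7 RPM in WT1 to WT5. The KO libraries, in the order of their numbers, had 47.3, 51.7, 77.9, 90.3 and 85.4 RPM. KO1 lay under the lowest WT library, KO2 and KO3 inside the WT range, and KO4 and KO5 above the highest WT library, so the groups overlapped. The log2 fold change was 0.15 ± 0.22 (95% interval -0.32 to 0.61, limma adjusted p = 0.786). This interval leaves room for changes of up to 1.53-fold upward.

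hsd17b8 encodes a subunit that, with carbonyl reductase 4 (cbr4), forms the ketoacyl reductase of mitochondrial fatty acid synthesis in humans. It was detected at 8.64, 10.5, 7.93, 3.47 and 14.2 RPM in WT1 to WT5. In the KO libraries, in the same order, it was 4.50, 8.81, 5.53, 6.81 and 10.2 RPM. All KO values lay inside the WT range, and WT4 was the lowest of the 10. The log2 fold change was -0.23 ± 0.34 (95% interval -0.94 to 0.48, limma adjusted p = 0.786).

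hsd17b10 encodes a mitochondrial protein that acts in the breakdown of isoleucine and, in mammals, is also a subunit of the RNase P that cuts mitochondrial tRNAs from their precursors. Its level was 13.1, 43.4, 41.5, 15.1 and 29.2 RPM in WT1 to WT5. It was 17.5, 17.2, 39.6, 34.6 and 21.7 RPM in KO1 to KO5. Both groups held high and low libraries, and all KO values lay inside the WT range. The log2 fold change was -0.05 ± 0.33 (95% interval -0.75 to 0.65, limma adjusted p = 0.963), and it was above 0 in 10 of 21 alternative settings. In ASM223467v1 a non-coding gene, LOC110015393, overlaps hsd17b10, so reads of the pair may have been split. Its level was low, at 0.681 RPM in WT and 1.65 RPM in KO.

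**Figure D3:**
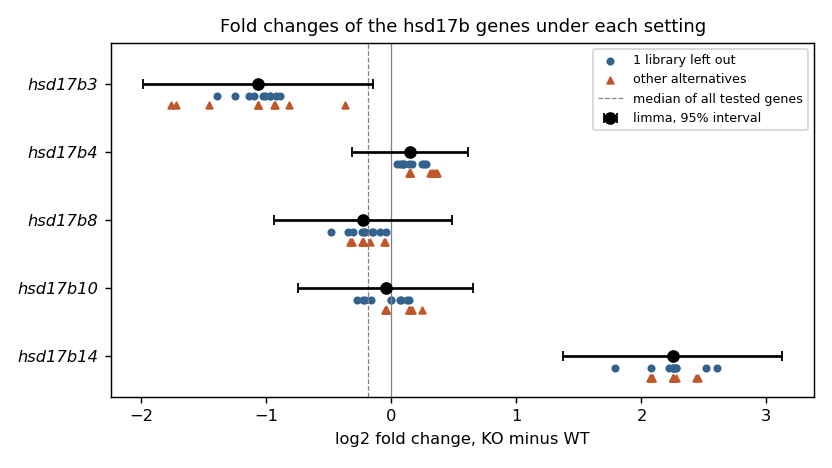
Log2 fold changes, KO minus WT (x axis), of the 5 hsd17b genes; black points are limma values with 95% intervals, blue points leave out 1 library each, orange triangles are the other alternatives, and the dashed line is the median of all tested genes at -0.19. hsd17b14 lies above 0 in every setting shown, between 1.78 and 2.60, and hsd17b3 lies below 0 in every setting, between -1.77 and -0.37. The settings share the same libraries, and hsd17b3 became a member through its WT level alone, which favours values below 0.

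Summed over the 5 members, the family held 81.6 to 206 RPM in WT and 243 to 323 RPM in KO. Without hsd17b14 the sum was 102 ± 24.5 RPM in WT and 104 ± 28.1 RPM in KO. hsd17b14 made up 46.5%, 47.2%, 13.7%, 11.3% and 27.3% of the family's RPM in WT1 to WT5. The shares in KO1 to KO5 were 71.0%, 69.4%, 57.2%, 59.2% and 59.9%. These shares are of 3' reads without a length correction, and they follow from the values of the single genes.

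**Figure D4:**
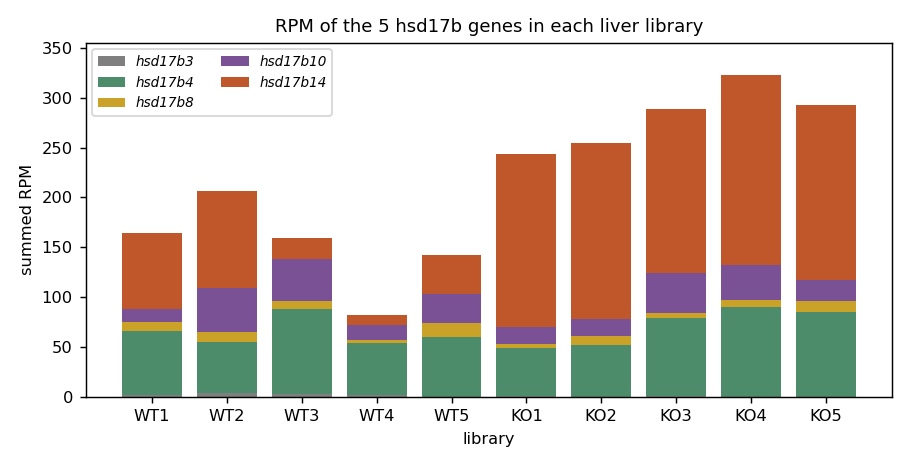
Summed RPM (y axis) of the 5 hsd17b genes in each liver library (x axis), stacked by gene. The KO sums of 243 to 323 RPM exceed the WT sums of 81.6 to 206 RPM, and the part of the bars below hsd17b14 has a like height in both groups.

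Beside hsd17b3 and hsd17b14, a list of genes of androgen and estrogen synthesis, transport and receptors had 21 matched gene IDs and 15 tested. Steroid activity of the medaka hsd17b14 product was not tested. In limma 0 rose and 1 fell, against 1.17% and 1.68% of all tested genes. At an unadjusted p under 0.05 limma gave 2 higher and 2 lower. At an adjusted p under 0.05 edgeR called 0 and DESeq2 1 lower, against 47 and 179 lower over all tested genes. The member that fell was esr1, an estrogen receptor gene, from 102 ± 20.8 to 34.3 ± 33.6 RPM. Its log2 fold change was -1.88 ± 0.36 (limma adjusted p = 0.00646, edgeR adjusted p = 0.143). The groups of esr1 overlapped, with 94.2 RPM in KO2 and a WT range of 69.2 to 124 RPM. Another estrogen receptor gene, esr2, averaged 26.2 and 28.5 RPM (limma adjusted p = 0.802), and a further entry of that symbol was at 0. Among those not called, shbg, the gene of the plasma carrier of sex steroids, averaged 304 ± 110 and 410 ± 41.9 RPM (0.49 ± 0.20, limma adjusted p = 0.232). Without WT3 and KO2 the difference of shbg passed, at 0.73 and a limma adjusted p of 0.00763, and without WT3 alone at 0.68 and 0.0136. Over all genes these settings called 424 and 365 higher, against 175 with all libraries. WT3 and KO2 were set apart by egg protein share, which itself differed between the genotypes. cyp11b, whose product makes 11-oxygenated steroids in fish gonad and interrenal tissue, averaged 7535 ± 318 and 6938 ± 415 RPM (-0.12 ± 0.17, limma adjusted p = 0.765). It held most of the summed RPM of the list, 7908 to 8632 in WT and 7276 to 8121 in KO. star, another gene of the list, averaged 0.366 and 0.890 RPM. Whether the reads under the symbol cyp11b come from a gene of that function was not tested, so its level is no measure of steroid synthesis in liver. The median of the list was -0.10.

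No tested gene of the lists around the other members passed in the main limma fit, on the RPM as deposited with all 10 libraries. Over all tested genes that fit called 1.17% higher and 1.68% lower. Whether 0 calls are unusual in lists of these sizes was not tested. In peroxisomal beta-oxidation, the setting of hsd17b4, 0 of 17 tested genes passed in limma (unadjusted 1 higher and 0 lower, edgeR 0, DESeq2 1 higher), with a median of -0.03. The catalase gene cat averaged 505 and 628 RPM (log2 fold change 0.39) and phyh, of branched fatty acid breakdown, 239 and 233 RPM. The difference of cat passed without WT3 and KO2 (0.77, limma adjusted p = 0.0307), a setting that called 424 genes higher, against 175 with all libraries. In mitochondrial fatty acid synthesis, the setting of hsd17b8, 0 of 9 passed in limma (unadjusted 1 higher and 1 lower, edgeR and DESeq2 0), with a median of -0.08. Its partner gene cbr4 averaged 3.97 and 4.19 RPM. The acyl carrier protein gene ndufab1 averaged 136 and 129 RPM, and lipt2, of lipoic acid attachment, 13.6 and 8.64 RPM (-0.60, limma adjusted p = 0.380). mcat, the malonyl transferase gene of the same pathway, named here after its values were seen, averaged 0.926 and 3.53 RPM with no overlap between groups (1.36, limma adjusted p = 0.0730, 0.0410 after TMM and 0.0434 after median-of-ratios scaling). Groups did not overlap with KO higher in 1.03% of all tested genes. Over all genes the scalings called 303 and 296 higher, against 175 as deposited.

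Of 14 tested genes of mitochondrial RNase P and isoleucine breakdown, the setting of hsd17b10, 0 passed in limma (unadjusted 1 higher and 0 lower, edgeR and DESeq2 0), with a median of 0.00. The RNase P subunit gene trmt10c averaged 3.19 and 2.72 RPM, the acyl-CoA enzyme genes ivd and echs1 43.0 and 52.6 RPM and 41.7 and 30.8 RPM. The fatty acid elongation list, where the product of another family gene, hsd17b12, acts in mammals, had 0 of 10 passing in limma (unadjusted 0 higher and 3 lower, edgeR and DESeq2 0) and a median of 0.02. Its most abundant members acsl1 and elovl5 averaged 96.7 and 65.1 RPM and 84.9 and 44.3 RPM. Both passed as lower in KO without WT3 and KO2 (limma adjusted p = 0.0266 and 0.00147), and elovl5 also without WT3 alone (0.0149). Over all genes limma called 621 lower without WT3 and KO2, and 479 lower without WT3 alone. With all libraries it called fewer genes lower, 1.68% of those tested. In cholesterol synthesis, where mammalian HSD17B7 acts, 0 of 19 passed in limma (unadjusted 0 higher and 1 lower, edgeR and DESeq2 0), with a median of -0.23, and msmo1 and hmgcs1 averaged 381 and 267 RPM and 174 and 142 RPM. Of 6 tested lipid droplet protein genes, 0 passed in limma (unadjusted 1 higher and 3 lower, edgeR 0, DESeq2 1 higher), with a median of -0.08. Its members g0s2 and dgat2 averaged 260 and 299 RPM and 57.2 and 114 RPM, and dgat2 passed without WT3 (1.07, limma adjusted p = 0.0464) and in DESeq2 (1.32, adjusted p = 0.00736). Over all genes limma without WT3 called 365 higher and DESeq2 310, against 175 in limma with all libraries. With all libraries limma called 1.17% of tested genes higher and 1.68% lower. Whether 0 calls are unusual in lists of these sizes was not tested.

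A pair of other short-chain dehydrogenases, hpgd and spr, rose beside hsd17b14. Of 21 tested genes of retinol and other short-chain dehydrogenases, 2 rose and 0 fell in limma, and the median was 0.14. Over all tested genes limma called 1.17% higher and 1.68% lower. Unadjusted, limma gave 5 higher and 0 lower in the list, and that share was not counted over all genes. At an adjusted p under 0.05 edgeR called 3 and DESeq2 5 of the list higher, against 131 and 310 of 14984 genes. hpgd, whose product inactivates prostaglandins, rose from 109 ± 46.3 to 272 ± 55.4 RPM (1.40 ± 0.25, limma adjusted p = 0.00432). Its WT libraries spanned 58.8 to 172 RPM and its KO libraries 211 to 333 RPM, with no overlap. spr, the sepiapterin reductase gene of tetrahydrobiopterin synthesis, rose from 80.3 ± 20.2 to 148 ± 36.3 RPM (0.87 ± 0.21, limma adjusted p = 0.0280). The groups of spr touched, with a highest WT value of 114 RPM and a lowest KO value of 112 RPM. Dropping single libraries ended the call of spr in 7 of 10 cases, with a limma adjusted p as high as 0.0923, and the replicate block ended it too (0.0647). The retinol dehydrogenase-like gene sdr16c5 averaged 206 and 246 RPM and dhrs4 70.9 and 67.2 RPM, and neither passed. The difference between this list and other genes was not tested.

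**Figure D5:**
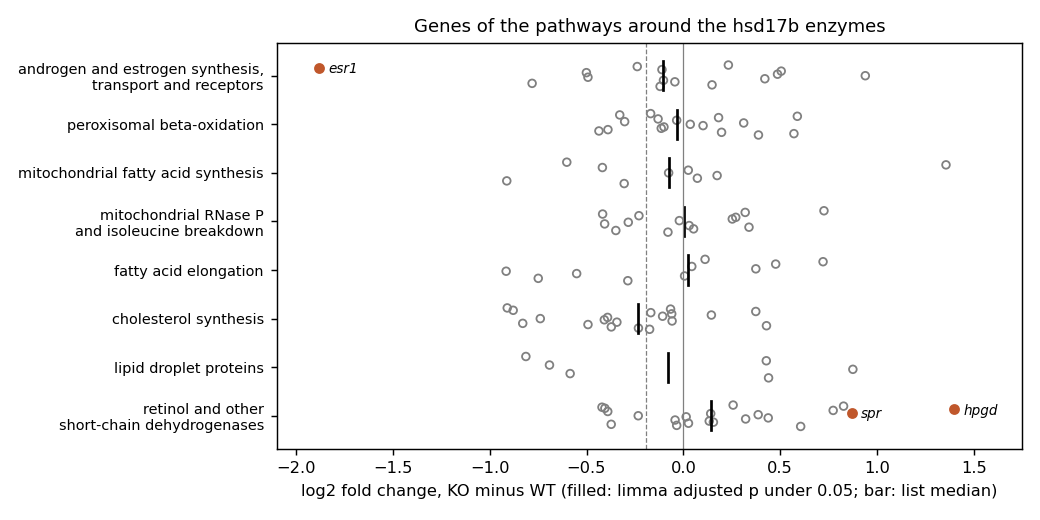
Log2 fold changes, KO minus WT (x axis), of the tested genes in 8 lists of pathways around the hsd17b enzymes (rows); filled points passed limma at an adjusted p under 0.05, bars are list medians and the dashed line is the median of all tested genes. The filled points are esr1 at -1.88, spr at 0.87 and hpgd at 1.40.

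Library totals ran from 5422342 to 9803543 reads for WT, and for KO from 4542721 to 10112313. The liver label was met by its markers, with 6 of 6 matched hepatocyte genes tested and summed levels of 7856 to 18788 RPM in WT and 18980 to 25179 RPM in KO. Of these 1 rose (hpx) and 0 fell in limma, against 1.17% and 1.68% of all tested genes. Unadjusted, limma gave 4 higher and 0 lower, and all 6 fold changes were above 0. At an adjusted p under 0.05 edgeR called 1 higher and DESeq2 4 higher. Over all 14984 tested genes edgeR called 131 higher and 47 lower, and DESeq2 310 higher and 179 lower. The 4 egg protein and estrogen-response genes, a list chosen with their fall in these libraries known, all fell in limma, while edgeR called 0 and DESeq2 2 lower. Of the other marker lists, 1 pancreas gene summed to 12.2 to 208 RPM in WT and 3.52 to 71.9 RPM in KO, and 3 intestine genes to 0.35 to 108 RPM and 0.492 to 3.08 RPM, with 108 RPM in WT5. Leukocyte markers (6 matched) summed to 581 to 1824 and 881 to 1906 RPM, red blood cell markers (2) to 20.8 to 35.8 and 14.1 to 39.4 RPM, bile duct markers (5) to 96.8 to 129 and 107 to 172 RPM, and stellate and endothelial markers (9) to 30.5 to 41.9 and 25.6 to 42.3 RPM. In these last 6 lists limma called 0 genes (unadjusted 0 higher and 2 lower), and edgeR and DESeq2 0. The part of these cells in the fold changes was not tested. The name phod1 or pd1 is borne by no gene in the name table, so the knockout was not checked at its own transcript.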

How the data were processed

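Liver RNA of WT and KO medaka was read as 3' libraries, 5 per genotype, made with Lasy-Seq v1.1, per the labels' protocols. BWA (0.7.17-r1188) and, separately, Salmon (1.4.0) are listed by the submitters' processing notes without a role. The build of the genome is not given in the sources used here. RPM values for 25795 genes were deposited, and each library sums to 1000000. All 25795 IDs matched the RefSeq gene table (ASM223467v1), used for names and gene order. Values were whole multiples of 1 read within 1e-06 for 100.0% of entries, those of KO5 among them. The step of KO5 (0.0989 RPM) lies close to a round value and was not accepted by a check on its size. KO5 was therefore left out of the count tests, although its values were whole reads within 5.8e-10. Its reads are included in the read sums given for KO. Libraries of a group differed by a chi-square of 14.6 to 140 per degree of freedom, so all were kept as separate samples.

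The 14984 genes that reached 1 RPM in 5 or more libraries, all 5 members among them, were tested with limma 3.58.1 in R 4.3.3 on log2(RPM + 1) with a variance trend, two-sided, with Benjamini-Hochberg adjustment over all genes and a threshold of 0.05. edgeR 4.0.16 (quasi-likelihood) and DESeq2 1.42.0 on recovered reads, other scalings, pseudocounts, filters, robust variances, the replicate block and left-out libraries were alternatives. Figures and permutation tests used Python 3.11.15 with scipy 1.17.1 and matplotlib 3.10.9.

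The members, the lists and the rule for named genes were chosen with earlier results of these data known. The rule names every member, up to 4 called genes and the 2 most abundant others of each pathway list, and the 3 genes with the profiles most like hsd17b3 and hsd17b14. trmt10c, cbr4, mcat, esr2, hpx and the neighbouring and marker genes were named after their values were seen.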

Additional observations from a re-analysis of the deposited data

How the results depend on the processing

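hsd17b14 kept its direction in all 21 alternatives and its call in 19. Of the kept calls, the one without a filter lay nearest the threshold (limma adjusted p = 0.0492). The 2 losses were robust variances (log2 fold change 2.25, limma adjusted p = 0.0950) and edgeR on reads (2.08, adjusted p = 0.0507), where 0 members were called higher; the cause was not tested. Leaving out 1 library gave 1.78 (without WT4) to 2.60 (without WT2), with limma adjusted p-values of 0.00314 to 0.0201. hsd17b3 kept its direction in the 20 alternatives that gave a value and was called in none. Its log2 fold change was -0.37 with a pseudocount of 5 and -1.77 in DESeq2, which gave no adjusted p. The filter of 5 RPM removed it. All alternatives reuse the same reads. hsd17b3 also met the member level through WT alone, which already favours a KO level below that of WT. hsd17b4 and hsd17b8 kept their direction throughout, uncalled, and no setting called a member lower.

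The background counts, 175 genes higher and 1.68% of tested genes lower, moved more. They were 73 and 103 without a filter, 303 and 131 under TMM, 296 and 143 under median-of-ratios scaling, and 424 and 621 without WT3 and KO2. DESeq2 called 310 higher and 179 lower, and edgeR 131 higher and 47 lower. Leaving out 1 library gave 94 to 365 higher and 104 to 479 lower. TMM moved the median of all genes from -0.19 to -0.01, and hsd17b14 stood at 2.45 there. The same replicate numbers did not pair the libraries (correlations of deviations from -0.08 to 0.00), and the replicate block gave 2.25 for hsd17b14, still called, and -1.07 for hsd17b3, still uncalled. hsd17b3 rests on 60 reads in WT and 13 in KO.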
